A study of Papio papio with 23 samples.

Results

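Whole blood drawn 1 day after gamma irradiation from baboons that went on to the H2-3 category of the haematologic acute radiation syndrome, medium to severe failure of blood formation, was set against blood drawn before irradiation and labelled H0. The comparison takes 10 of the 23 arrays of the series, 5 in each group, chosen by the group named in the sample titles and not by any measured value. The animals were adult male Papio papio with an average age of 8.1 ± 3.3 years, and every sample is peripheral whole blood. H2-3 animals had been placed under anaesthesia in front of a 60Co source and given total or partial body exposure, with an equivalent whole-body dose of 2.5 or 5 Gy. The dose and the exposed part of the body are not given per animal in the labels used here, so both may be mixed within the group. The question set by the design is which transcripts of blood differ on the first day in animals whose blood count later falls.

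The probes were designed for human genes, and a probe with mismatches to the baboon transcript can read low, so levels of different genes are not comparable as amounts of transcript. A level below is the log2 signal of a gene's probe minus the 75th percentile of its array, so 0 is the brightness at that percentile. A change is the mean level of the 5 H2-3 day 1 arrays minus the mean of the 5 H0 arrays, given with its standard error (SE). A gene rose or fell where limma's Benjamini-Hochberg adjusted p, over all 21130 genes tested, was under 0.05. Every gene symbol is the one the array design gives, and probe positions are on the hg19 human build.

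As background, blood holds red cells, platelets, short-lived neutrophils and monocytes, and lymphocytes. Resting lymphocytes are among the most radiation-sensitive cells of the body and leave the blood within days of exposure, B cells fastest. Neutrophils and monocytes are not dividing and are released from marrow stores under stress, so their share of blood cells can go up early while lymphocytes go down. A transcript's level in whole blood follows both the number of cells of each type and the RNA in each cell, and fewer cells of a type and less RNA per cell cannot be told apart here.

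Between 44.9% and 51.3% of probes were well above background on the H0 arrays, and between 41.4% and 48.3% on the H2-3 day 1 arrays, lowest on baboon 1 of H2-3. Globins, platelet factor and leukocyte genes that define whole blood (HBA2, HBB, PF4, S100A8, CSF3R, CD3D and CD79A) were well above background on all 10 arrays. Correlations between arrays of a group, across genes, were 0.94 to 0.97 for H0 and 0.97 to 0.98 for H2-3 day 1. H0 baboons 1 and 2 share a slide and were scanned on another day than the other 8 arrays. Slide 3 is the only one that carried both groups, with H0 baboon 5 and H2-3 baboon 1. On that slide, 99.3% of the genes that rose were higher in the H2-3 array and 99.0% of the genes that fell were lower, though both arrays were part of the fit that called these genes. Without the 2 H0 arrays of the other scan day, a choice made after seeing the data, 4430 genes passed in place of 6007, and counts of list members that moved by over 1.5 times are given both ways below. With the slide as a block, which leaves slide 3 alone to set the groups against each other, 1112 passed. Nothing in the labels says more about how the animals were sampled. The p-values rest on the spread within the 5 groups of the fit, pooled over all 23 arrays. Day 1 and day 2 arrays of a category that carry the same baboon number are treated there as independent. With such arrays joined as a random block, 6012 genes passed.

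Irradiated blood differed over a large part of the array. Of 21130 genes, 6007 passed (28.4%): 3161 rose (15.0%) and 2846 fell (13.5%). The falls were the deeper: 501 genes fell by at least 4-fold and 79 by at least 8-fold, against 196 and 30 that rose by as much. All 5 H2-3 arrays lay above all 5 H0 arrays for 2023 genes (9.57%), and below them for 1958 genes (9.27%). The median change of all genes was 0.14. The split between rises and falls depends on the scaling: 52.6% of the called genes were higher here, but 34.8% when each array was scaled on probes well above background everywhere, 43.4% after quantile normalization and 43.5% in the authors' deposited table.

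**Figure D1:**
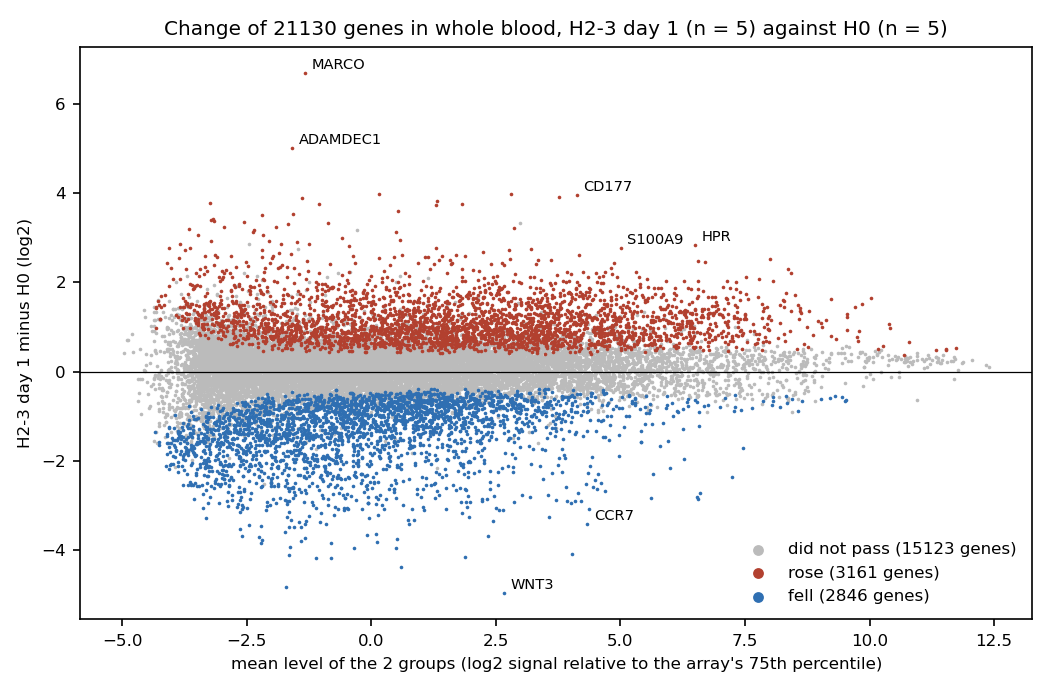
Each point is a gene, with its mean level over both groups on the horizontal axis and the change from H0 to H2-3 day 1 on the vertical axis, both log2. The 3161 genes that rose are red, the 2846 that fell are blue and the rest are grey. MARCO and ADAMDEC1 stand highest and WNT3 lowest among the genes labelled, and many of the rises are at bright probes.

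Calls were also counted by probe brightness, which reflects the probe as well as the transcript. Among the brightest of 4 equal groups of probes 26.8% rose and 9.01% fell, while in the dimmest group 7.63% rose and 13.0% fell. Of genes that carry an ordinary symbol 17.6% rose and 16.1% fell, and of those with long noncoding names 8.54% rose and 4.77% fell. The first principal component of the 10 arrays held 47.6% of the variance and put all H0 arrays on one side and all H2-3 arrays on the other. The second, with 14.8%, set H0 baboon 1 apart from the other arrays.

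Markers of blood cell types give the frame for every gene group below. All 15 neutrophil markers tested rose (median change 1.86; 11 without the 2 arrays of the other scan day), as did 12 of 15 monocyte markers (median 1.59). Lymphocyte markers fell: 15 of 18 B cell markers (median -2.77), 16 of 18 NK and cytotoxic markers (-2.56) and 16 of 20 T cell markers (-2.27), while 2 T cell markers rose. None of the 17 red cell markers passed, though 1 fell without H0 baboon 1 or H2-3 baboon 5, and 1 of 15 platelet markers rose, none without the 2 H0 arrays of the other scan day, H0 baboon 5 or H2-3 baboons 3 or 5. Over the arrays, the mean neutrophil marker level ran from 2.45 to 5.02 in H0 (median 3.67) and from 5.44 to 6.20 in H2-3 (median 5.56). Mean B cell marker level ran from 1.67 to 2.30 in H0 and from -1.33 to 0.34 in H2-3, with no overlap between groups. How much of any change below goes with these shifts in cell markers was not tested.

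The 12 largest rises among genes with a symbol, measured on all 10 arrays and with no overlap between groups, were led by surface proteins and enzymes of neutrophils and macrophages. CD177, a neutrophil surface protein (chr19:43866549-43866608), stood at -0.20, 2.52, 5.08, 2.04 and 1.33 in the H0 animals and at 7.16, 6.22, 5.59, 5.74 and 5.82 in H2-3. The H2-3 animals lay close together and above every H0 animal, among which baboon 3 was high and baboon 1 low. The rise was 3.95 ± 0.68 (15.5-fold, limma adjusted p = 0.000344). Another of the gene's probes moved by 4.34 and a dimmer one by 0.79.

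VSIG4, a complement receptor of tissue macrophages (chrX:65241686-65241745), was at -1.19, -0.96, -0.31, -0.15 and -0.39 in H0 and at 3.62, 2.36, 2.00, 3.28 and 4.83 in H2-3. Every H2-3 array was at least 2 log2 units above every H0 array. It rose by 3.82 ± 0.58 (14.1-fold, limma adjusted p = 0.000135). CES1, a carboxylesterase made by monocytes and liver (chr16:55836764-55836823), was at -0.01, 0.18, 1.66, -1.45 and -0.68 in H0 and at 3.17, 2.40, 5.30, 4.66 and 2.97 in H2-3. Both groups were broad and did not overlap (3.76 ± 0.78, limma adjusted p = 0.00129), and its 3 other probes gave 3.80, 1.21 and 1.22. FAM20A, a pseudokinase of the secretory pathway, was at -1.72, -2.00, 0.90, -1.82 and -1.66 in H0, where baboon 3 stood alone, and between 1.73 and 3.09 in H2-3 (3.60 ± 0.65).

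TKTL1, a transketolase-like protein, stood between 0.83 and 1.71 in H0 and at 5.49, 3.80, 4.61, 4.24 and 4.24 in H2-3, 9.31-fold higher (limma adjusted p = 0.000258). HSPB1, the small heat shock protein HSP27, was at -1.78, -0.86, -0.17, -1.35 and -1.22 in H0 and at 1.74, 1.69, 2.08, 2.92 and 1.81 in H2-3. Here the H0 group was narrow and all H2-3 arrays were at a like height (3.13 ± 0.44, limma adjusted p = 9.16e-05). CMKLR1, the chemerin receptor, rose by 2.94 ± 0.60 and DACH1, a transcriptional corepressor, by 2.60 ± 0.40.

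Several of the remaining rises had a wide H0 group. HPR, the haptoglobin-related protein (chr16:72110884-72110943), was at 2.62, 5.39, 7.43, 5.40 and 4.57 in H0 and at 8.78, 7.58, 7.56, 7.72 and 7.90 in H2-3, and the groups were 0.13 apart because H0 baboon 3 was high. HPR is a near copy of HP, and hybridisation of one transcript to the other's probe cannot be told apart. S100A9, a subunit of calprotectin, was at 2.46, 4.83, 3.99, 2.44 and 4.37 in H0 and at 8.39, 6.37, 6.63, 5.14 and 5.38 in H2-3 (2.76 ± 0.71, limma adjusted p = 0.00603). CFD, complement factor D, rose by 2.74 ± 0.78 and PROK2, a chemokine-like protein of neutrophils, by 2.73 ± 0.61, each with the lowest H2-3 array just above the highest H0 array.

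**Figure D2:**
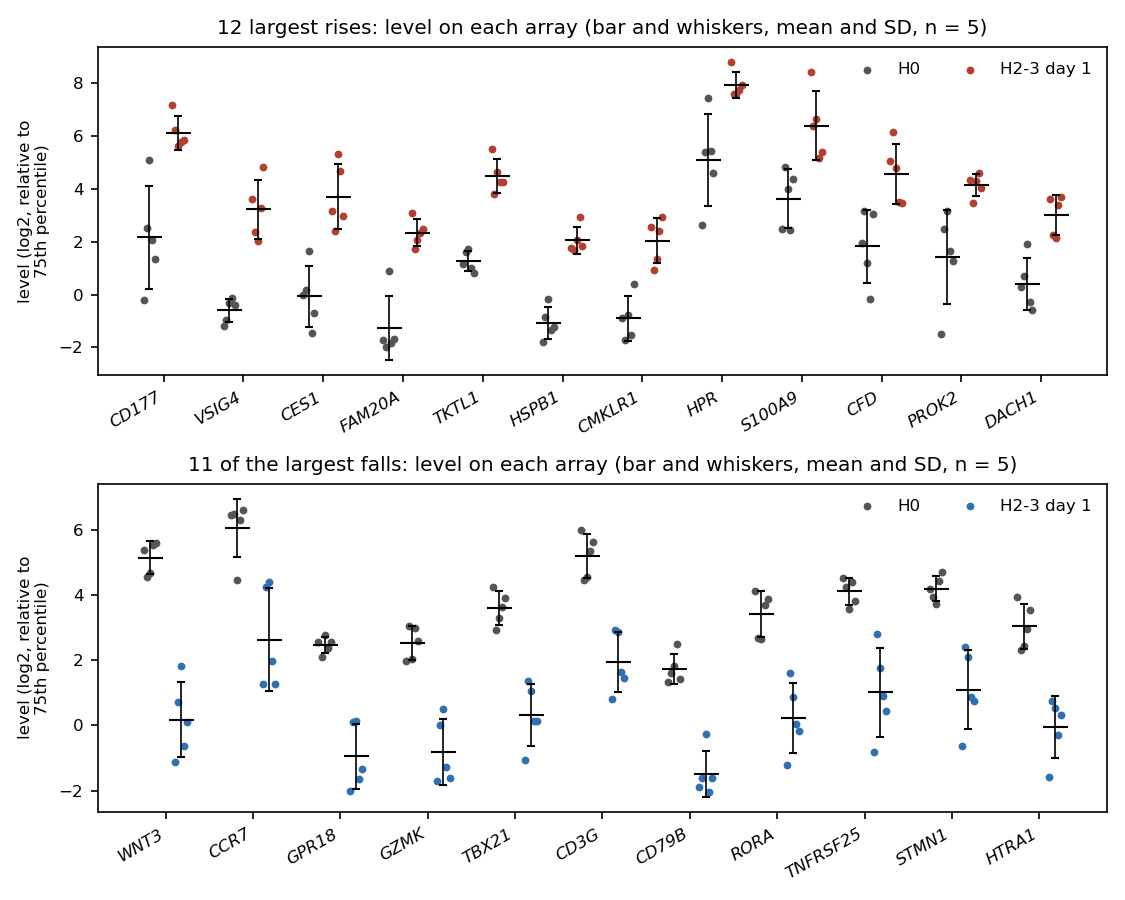
Level of the 12 largest risers and of 11 of the largest fallers, one point per array, grey for H0 and coloured for H2-3 day 1, with the mean and SD (n = 5). No gene's groups overlap, and CD177, HPR and PROK2 show H0 arrays spread over more than 4 log2 units.

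The largest falls, chosen in the same way, are described here for 11 genes, among them genes of B and T cell receptors and of lymphocyte traffic. WNT3, a secreted WNT ligand (chr17:44841704-44841763), stood at 5.39, 4.55, 4.67, 5.53 and 5.58 in H0 and at -1.11, 0.73, 1.82, -0.64 and 0.11 in H2-3. All H2-3 arrays were far below all H0 arrays, and baboon 1 was the lowest. The fall of 4.96 ± 0.84 on the log2 scale (31.2-fold, limma adjusted p = 0.000293) was the largest among these 11. CD79B, a signalling chain of the B cell receptor (chr17:62007153-62007212), was at 1.33, 1.62, 1.81, 2.49 and 1.41 in H0 and at -1.87, -1.62, -0.25, -2.04 and -1.61 in H2-3, with baboon 3 keeping the most. It fell by 3.21 ± 0.65 (9.24-fold, limma adjusted p = 0.00114).

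CCR7, which guides naive lymphocytes to lymph nodes (chr17:38710060-38710119), was at 6.43, 6.48, 4.45, 6.29 and 6.59 in H0 and at 1.26, 4.24, 4.40, 1.97 and 1.26 in H2-3. The groups were separated by 0.05, since H0 baboon 3 was low and H2-3 baboons 2 and 3 were high (-3.42 ± 0.69, limma adjusted p = 0.00109). GZMK, a granzyme of memory T cells, was at 1.97, 3.06, 2.05, 2.98 and 2.58 in H0 and at -1.71, 0.03, 0.52, -1.27 and -1.61 in H2-3, 10.1-fold lower (limma adjusted p = 7.08e-05). The same order among the H2-3 animals returned: baboons 2 and 3 kept more than baboons 1, 4 and 5. Baboons 2 and 3 share slide 4, baboons 4 and 5 share slide 5 and baboon 1 is on slide 3. Animal and slide therefore cannot be told apart in this order, here or below. CD3G, part of the CD3 complex of T cells, was at 5.98, 4.47, 4.54, 5.34 and 5.63 in H0 and at 0.82, 2.93, 2.86, 1.64 and 1.46 in H2-3, and TBX21, the T-bet transcription factor of Th1 and NK cells, fell by 3.27 ± 0.45. Among the others were GPR18, a lymphocyte receptor (-3.42 ± 0.46), RORA, a nuclear receptor (-3.18 ± 0.42), TNFRSF25, a T cell costimulatory receptor (-3.09 ± 0.48), the microtubule regulator STMN1 (-3.09 ± 0.45) and the serine protease HTRA1 (-3.09 ± 0.57).

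A gene's probes did not always move together, which bears on how far a symbol stands for its transcript. Of 909 called genes with more than 1 probe measured on all 10 arrays, probes differed in sign for 85. LCK and NOTCH2NL alone had probes that moved by over 1 log2 unit in opposite directions, and they are named for that reason, after their values were seen. The first 30 bases of 2 probes of LCK, the kinase of the T cell receptor, and of 2 probes of STMN1 are given to show which stretches of transcript were read, in the probe orientation and with hg19 positions chr1:32751432-32751491 and chr1:32745711-32745770 (LCK, plus strand), and chr1:26227232-26227291 and chr1:26211448-26211507 (STMN1, minus strand).

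LCK probe 1: cccacccacatgtgacacatatgcaccttg
LCK probe 2: agaagccattaactacgggacattcaccat
STMN1 probe 1: ctaatgtagctatttttcttgttgcatctt
STMN1 probe 2: acaaccacttacagacttcacaacctcctc

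LCK probe 1 fell by 2.76, from 2.91, 1.92, 1.26, 2.38 and 2.26 in H0 to -2.27, 0.80, -0.24, -0.68 and -0.71 in H2-3. LCK probe 2 moved up by 1.04, from 3.55, 3.76, 4.06, 3.84 and 3.59 to 5.30, 4.69, 4.56, 4.55 and 4.90. Neither pair of groups overlapped, so the array gives opposite answers for the same symbol. STMN1 probe 1 carried the fall given above, whereas probe 2 moved by 0.23. Neither probe is placed in an exon or untranslated region here, as no annotation was used.

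Some genes crossed the detection limit. A gene was counted as gained where its probe was well above background on all 5 H2-3 arrays and on no H0 array, and as lost in the opposite case: 14 genes were gained and 141 lost. With at least 4 arrays against at most 1 as the rule, 101 were gained and 554 lost. MARCO, a scavenger receptor of macrophages (chr2:119751977-119752036), was not well above background in any H0 animal (-4.19, -5.55, -3.74, -4.75 and -5.16) and stood at 1.76, 1.22, 1.06, 2.31 and 3.72 in H2-3. Its level was at least 38.1-fold higher (limma adjusted p = 7.08e-05), the bound being set by the dimmest signals well above background on the H0 arrays. Next came SH3PXD2B, an adaptor of podosomes (at least 5.25-fold), EPS8, an actin regulator (5.21-fold), ID1, an inhibitor of helix-loop-helix factors (3.72-fold), the anion transporter SLC26A9 (3.43-fold) and the reticulon RTN1 (3.39-fold). EPS8 was even among the H2-3 animals, at -0.70, -0.98, -0.73, -0.92 and -0.74.

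Lost genes were led by BHLHE41, a transcription factor of the clock and of B cells, at -2.77, -0.57, 1.58, -0.20 and 0.46 in H0 and not well above background in H2-3 (at least 6.54-fold lower, limma adjusted p = 0.000586). CLECL1, a lectin-like protein of B cells and dendritic cells, was at least 5.72-fold lower. The extracellular protein CCDC80 was at least 5.65-fold lower. SOBP (at least 4.11-fold), C6orf26 (3.94-fold) and the orphan receptor GPR153 (3.88-fold) followed.

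Receptors that sense microbes and damage were among the genes that rose. Of 20 Toll-like receptors and adaptors 12 rose (60.0%, against 15.0% of all genes) and none fell (median 1.04; 7 without the 2 H0 arrays of the other scan day). TLR4, the lipopolysaccharide receptor, was at 1.16, 3.93, 5.17, 3.50 and 3.90 in H0 and at 5.53, 5.03, 4.92, 5.97 and 6.24 in H2-3, and H0 baboon 3 lay within the H2-3 range (2.01 ± 0.53, limma adjusted p = 0.00732). TLR2, which senses lipoproteins, rose by 1.68 ± 0.43. IRAK3, which restrains Toll-like receptor signalling, rose by 1.88 ± 0.40 with no overlap.

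In the inflammasome, IL1 and IL18 list, 16 of 21 rose (median 1.30) and 1 fell. IL1RAP, the shared coreceptor for IL1 family cytokines, was at -1.21, 0.08, 1.78, -0.85 and 0.80 in H0 and at 3.31, 2.48, 2.36, 2.43 and 2.47 in H2-3. All H2-3 arrays were above all H0 arrays, and 4 of them were nearly level (2.49 ± 0.48, limma adjusted p = 0.000783). IL1R1, the signalling receptor, rose by 2.30 ± 0.58, and IL1R2, its decoy, by 1.89 ± 0.48. IL18RAP, a chain of the IL18 receptor, rose by 2.51 ± 0.55, while its other probe moved by 0.79. The list's only fall, the cytokine IL18 (-1.20 ± 0.37), was no longer called without either of H0 baboons 1 and 5 or H2-3 baboons 2 and 3.

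Leukocyte immunoglobulin-like receptors and Siglecs, which tune the activation of leukocytes, had 23 of 38 members up (60.5%, median 1.38). LILRA5, an activating receptor of myeloid cells, was at 1.60, 2.00, 3.20, 2.00 and 2.25 in H0 and at 4.73, 4.00, 4.27, 4.16 and 4.50 in H2-3 (2.12 ± 0.34, limma adjusted p = 0.000219). LILRA6 rose by 2.22 ± 0.39 and LILRA2 by 2.10 ± 0.32, and these neighbours are close in sequence, so signal shared between them cannot be told apart. The 3 members that fell were lymphocyte receptors: SIGLEC10 (at least 2.25-fold lower), CD22 (not well above background in H2-3) and HCST, the DAP10 adaptor of NK cells (-1.95 ± 0.31). Of 18 Fc receptors 7 rose and 6 fell. FCAR, the myeloid IgA receptor, was at -0.77, 1.53, 2.42, 2.07 and 1.78 in H0 and at 4.45, 3.02, 3.54, 4.04 and 4.13 in H2-3 (2.43 ± 0.50). FCRL2, a B cell receptor, fell by 3.95 ± 0.68 and was well above background on 2 of 5 H2-3 arrays, though its other probe moved by -0.96.

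Myeloid C-type lectins, receptors for sugars and dying cells, had 9 of 18 up and 2 down. CLEC4A, an inhibitory lectin of myeloid cells, was at 2.70, 5.01, 5.63, 4.18 and 4.10 in H0 and at 6.90, 6.09, 5.83, 6.50 and 6.87 in H2-3, without overlap (2.11 ± 0.41, limma adjusted p = 0.000812). CLEC4D was well above background on 1 H0 array and on all H2-3 arrays (2.92 ± 0.62). CD69, an activation antigen of lymphocytes that lies in the same gene cluster, fell by 2.75 ± 0.57, and a second probe by 2.31. Among 17 chemokines, CXCL16, a membrane-bound ligand of myeloid cells, rose by 1.57 ± 0.30 and CCL5, made by T and NK cells, fell by 1.34 ± 0.30.

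S100 proteins, calcium-binding proteins some of which neutrophils store and release, had 9 of 14 up and none down (median 1.19). S100A12 was at 0.97, 3.16, 3.64, 2.98 and 2.46 in H0 and at 6.09, 4.54, 4.58, 4.63 and 4.13 in H2-3, highest in baboon 1. S100A8, the partner of S100A9 in calprotectin, rose by 2.29 ± 0.57, but 3 of the 5 H2-3 arrays lay below H0 baboon 3, which was at 9.37. All 6 tested subunits of the NADPH oxidase, the enzyme of the neutrophil oxidative burst, rose by 0.51 to 1.40 (4 passed without the 2 arrays of the other scan day). NCF4 among them was at 5.09, 6.26, 7.25, 6.13 and 5.54 in H0 and between 7.30 and 7.64 in H2-3. Mean neutrophil marker level was likewise highest in baboon 3 and lowest in baboon 1 of H0, and its part in these rises was not tested.

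Signalling receptors changed in both directions. Of 46 cytokine receptors, JAKs, STATs and SOCS genes, 18 rose and 15 fell (9 and 13 without the 2 H0 arrays of the other scan day). IL17RA, the IL17 receptor, was at 3.05, 4.59, 5.07, 5.18 and 4.62 in H0 and at 6.49, 6.39, 6.44, 6.71 and 6.82 in H2-3, and its other 2 probes gave 2.28 and 2.08 beside its 2.07 ± 0.36. CSF2RA, a chain of the GM-CSF receptor, rose by 1.90 ± 0.38. IL7R, the survival receptor of naive T cells, was at 5.73, 5.41, 4.85, 5.97 and 5.46 in H0 and at 1.38, 3.76, 3.54, 2.49 and 1.49 in H2-3 (7.73-fold lower, limma adjusted p = 0.0001). STAT4, which relays IL12 signals, fell by 2.61 ± 0.41, and IL2RA, the high-affinity IL2 receptor chain, by 2.89 ± 0.49, with 2 of 5 H2-3 arrays well above background.

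Chemoattractant receptors showed 10 rises and 9 falls among 30. FPR2, a formyl peptide receptor, rose by 2.44 ± 0.57 and CXCR1, an IL8 receptor, by 2.33 ± 0.37. CXCR5, which draws B cells to follicles, was at 2.36, 2.43, 2.09, 2.36 and 2.70 in H0 and at -2.99, 0.30, 0.03, -1.87 and -2.30 in H2-3, a fall of 3.75 ± 0.73. The H0 animals were almost level and H2-3 baboons 2 and 3, which share a slide, again kept the most. Adhesion molecules had 16 of 30 up, led by ITGAM, the alpha chain of Mac-1 (1.97 ± 0.35), SIRPB1 (1.90 ± 0.32) and SIRPA, the CD47 receptor (1.82 ± 0.35). Their 4 falls were CD2 (-2.50 ± 0.41; other probe -0.65), CD226 (not well above background in H2-3), ICAM2 (-1.34 ± 0.26) and ITGB1 (-0.83 ± 0.22).

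TNF ligands and receptors had 15 up and 9 down of 37 (9 and 9 without the 2 H0 arrays). TNFRSF21, death receptor 6, was at 0.60, 1.84, 1.97, 1.74 and 1.19 in H0 and at 3.90, 3.34, 3.57, 3.93 and 4.54 in H2-3, 5.24-fold higher (limma adjusted p = 0.000143). Its groups were more than 1 log2 unit apart. CD40, the B cell costimulatory receptor, fell by 3.01 ± 0.51, with 1 H2-3 array well above background, and FASLG, the death ligand of cytotoxic cells, by 2.82 ± 0.54. Complement genes had 12 of 23 up and 1 down (median 0.98). GPR77, a C5a receptor now named C5AR2, was not well above background in H0 and was at least 2.26-fold higher. CR2, the B cell receptor for C3d, was the list's single fall (-3.85 ± 0.76). Only 1 H2-3 array measured it above background, and a second probe of it moved by -1.40.

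**Figure D3:**
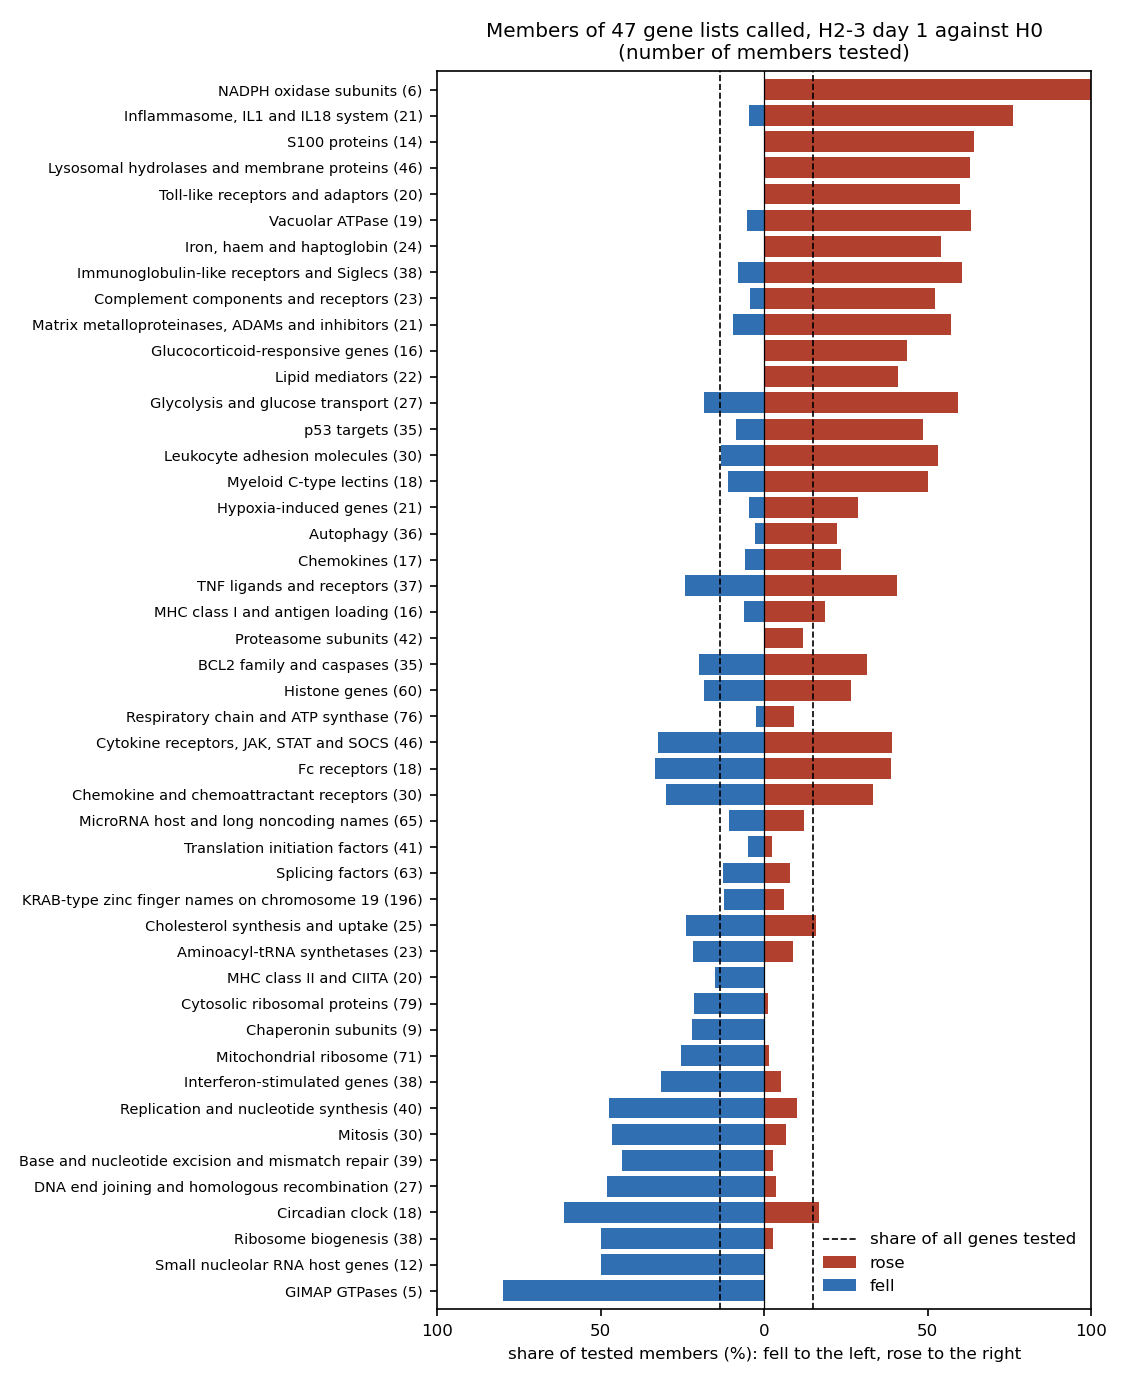
Share of the tested members of each of 47 gene lists that rose (red, to the right) or fell (blue, to the left), with the number tested in brackets and dashed lines at the shares over all genes (15.0% and 13.5%). Lists of myeloid receptors and lysosomal genes reach far beyond the right line, and those of repair, replication, mitosis, ribosome biogenesis and the clock beyond the left.

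Beyond receptors, many genes of the degradative machinery of phagocytes rose. Of 46 lysosomal hydrolases and membrane proteins, 29 rose (63.0%) and none fell (median 1.00; 19 without the 2 H0 arrays of the other scan day). CD68, a lysosomal membrane protein of macrophages, was at 1.71, 1.86, 1.62, 1.70 and 1.38 in H0 and at 3.40, 3.03, 3.58, 3.56 and 3.80 in H2-3. Both groups were tight and more than 1 log2 unit apart (1.82 ± 0.32, limma adjusted p = 0.00038). NPC2, which exports cholesterol from lysosomes, was at 5.87, 6.61, 6.19, 5.91 and 5.73 in H0 and at 8.11, 6.95, 7.49, 7.85 and 8.29 in H2-3.

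The vacuolar ATPase, the proton pump that acidifies lysosomes, rose in 12 of 19 subunit genes. ATP6V0D1 was at 4.04, 4.72, 5.37, 5.08 and 4.35 in H0 and at 6.40, 6.11, 6.10, 6.36 and 6.65 in H2-3 (1.61 ± 0.26, limma adjusted p = 0.000185). ATP6V0B rose by 1.53 ± 0.28 and ATP6V1A by 1.38 ± 0.31. ATP6V1E2, the testis-type E subunit, fell by 1.17 ± 0.21. Of 36 autophagy genes 8 rose (22.2%, beside 15.0% of all genes), and 5 without the 2 H0 arrays of the other scan day. Among the 8 were ATG7 (1.47 ± 0.28) and ATG3 (1.35 ± 0.28), enzymes of LC3 conjugation, while the receptor OPTN fell by 1.50 ± 0.40.

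Genes that handle iron and haem had 13 of 24 up (median 0.98). HP, haptoglobin, which binds free haemoglobin, was at 4.36, 7.15, 9.17, 6.84 and 6.18 in H0 and at 10.07, 8.96, 8.93, 9.11 and 9.24 in H2-3. H0 baboon 3 lay among the H2-3 animals and H0 baboon 1 more than 4 log2 units below it (2.52 ± 0.57, limma adjusted p = 0.00249). CD163, the receptor that clears haptoglobin bound to haemoglobin, was at 3.38, 5.01, 5.62, 5.00 and 5.07 in H0 and at 6.88, 6.14, 6.74, 6.63 and 7.02 in H2-3, without overlap (1.86 ± 0.34). Among genes of lipid mediators 9 of 22 rose, with ALOX5, the first enzyme of leukotriene synthesis (1.97 ± 0.42), PLA2G4A, the cytosolic phospholipase that frees arachidonate (1.91 ± 0.39), and PTGER2, a prostaglandin E2 receptor well above background on 2 H0 arrays (2.01 ± 0.41).

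Secreted proteases and their inhibitors had 12 of 21 up (7 without the 2 H0 arrays). ADAMDEC1, a metalloprotease of macrophages and dendritic cells, was at -4.35, -5.81, -2.76, -4.06 and -3.48 in H0 and at 0.93, 1.22, 0.58, 0.51 and 1.37 in H2-3. It was well above background on 1 H0 array and on every H2-3 array, which lay within 1 log2 unit of each other (5.01 ± 0.68, limma adjusted p = 7.44e-05). TIMP1, an inhibitor of matrix metalloproteinases, rose by 2.49 ± 0.34, and RECK, a membrane-bound inhibitor, fell by 1.54 ± 0.37, with 2 H2-3 arrays well above background. Mean monocyte marker level ran from 2.31 to 3.44 in H0 and from 4.08 to 4.85 in H2-3, and its part in these rises was not tested.

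Energy metabolism was read from glycolysis and respiration. Of 27 genes of glucose uptake and glycolysis, 16 rose (59.3%) and 5 fell (18.5%), with a median of 0.88. SLC2A3, the glucose transporter GLUT3, was at 1.85, 2.94, 4.20, 2.82 and 2.78 in H0 and at 4.87, 5.46, 4.92, 5.37 and 4.92 in H2-3 (2.19 ± 0.34, limma adjusted p = 0.000148), and its second probe gave 2.17. PFKFB4, which makes the activator of phosphofructokinase, rose by 2.11 ± 0.43 and HK3, a hexokinase of myeloid cells, by 2.04 ± 0.40. Among the 5 genes that fell were forms of enolase, aldolase and phosphofructokinase. ENO2, an enolase, was at 1.69, 2.33, 1.93, 3.17 and 2.70 in H0 and at -2.48, 1.29, 0.73, -0.23 and -0.21 in H2-3. ALDOC, an aldolase, fell by 1.94 ± 0.37. PFKM, the muscle-type phosphofructokinase, was narrow in both groups, at 0.72, 0.57, 0.58, 0.65 and 0.29 against -1.11, -0.89, -0.70, -0.88 and -0.62 (-1.40 ± 0.18, limma adjusted p = 7.08e-05).

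Of the respiratory chain and ATP synthase, 7 of 76 subunit genes rose (9.21%) and 2 fell (2.63%; none without the 2 H0 arrays of the other scan day), beside 15.0% and 13.5% of all genes, with a median of 0.09 whose sign turned under other scalings. Without H0 baboon 3, 11 rose and 5 fell, and the falls were 0 to 5 over the fits that left out 1 array. ATP5F1, a stalk subunit of ATP synthase, rose by 0.92 ± 0.22 and SDHB, the iron-sulphur subunit of complex II, by 0.82 ± 0.18. The mean level of the 76 genes was 3.89 to 4.05 in H0 and 3.87 to 4.21 in H2-3, so the groups overlapped. The test of whether glycolysis and respiration differ from each other was not made.

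**Figure D4:**
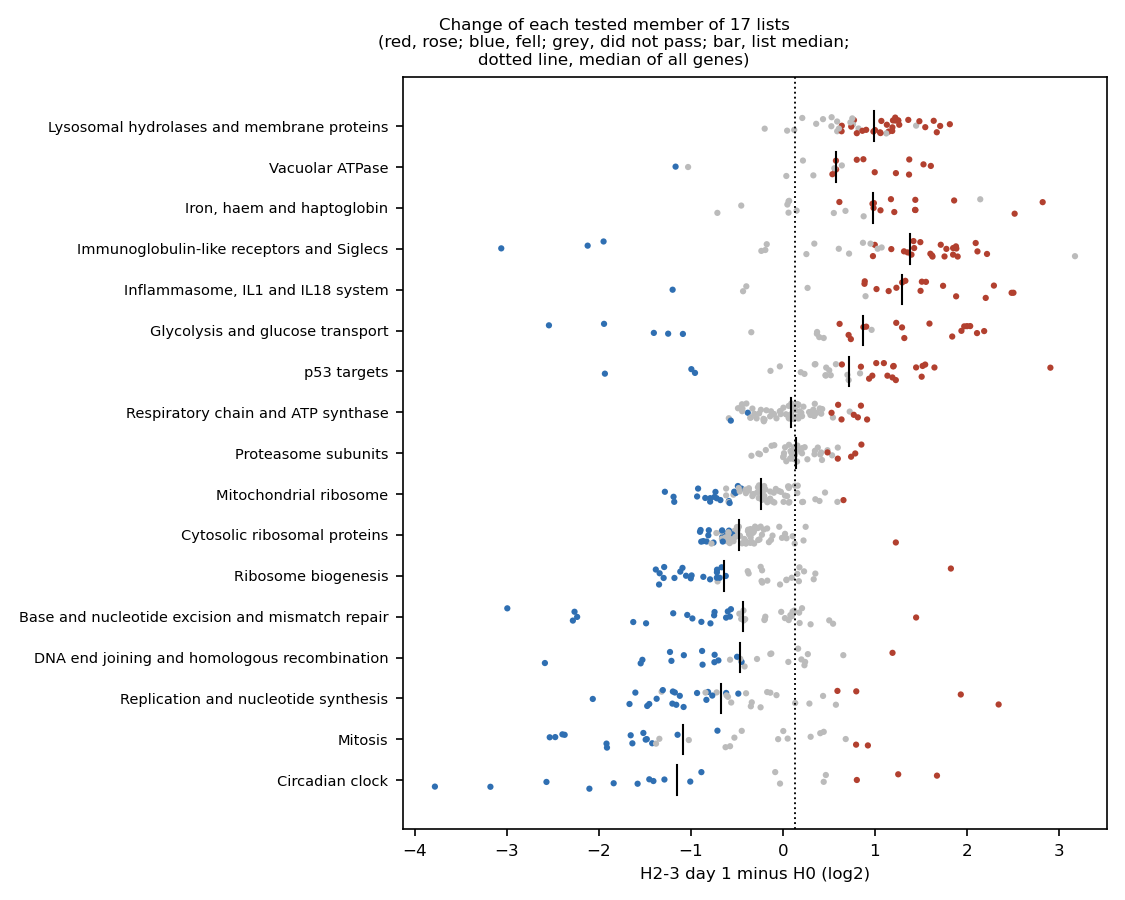
Change of every tested member of 17 lists, one point per gene on a log2 scale, red where it rose, blue where it fell and grey where it did not pass, with a bar at the list median and a dotted line at 0.14, the median of all genes. Lysosomal genes lie almost wholly to the right, ribosome biogenesis to the left, and glycolysis is split into a large group that rose and 5 genes that fell.

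Many genes that build ribosomes fell. Of 38 ribosome biogenesis factors 19 fell (against 13.5% of all genes) and 1 rose, with a median of -0.64. NOP56, a core protein of box C/D particles, was at 5.25, 4.74, 4.24, 4.38 and 4.61 in H0 and at 2.93, 3.44, 3.56, 3.23 and 3.35 in H2-3, and its other 2 probes gave -1.03 and -1.06 beside its -1.34 ± 0.23. The groups did not overlap. UTP20 of the small subunit processome was at 0.75, 0.06, 0.29, 0.94 and 0.55 in H0 and at -1.17, -0.60, -0.65, -1.07 and -0.82 in H2-3 (2.6-fold lower, limma adjusted p = 0.000304), and the nucleolar protein RRP1B fell by 1.35 ± 0.23. The exception was RRP12, a factor for export of ribosomal subunits, at -2.07, -1.19, -0.26, -1.48 and -1.49 in H0 and at 1.59, 0.41, 0.09, -0.30 and 0.87 in H2-3 (1.83 ± 0.37, limma adjusted p = 0.001).

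Hosts of small nucleolar RNAs, which guide the modification of ribosomal RNA, had 6 of 12 down (3 without the 2 H0 arrays of the other scan day), with SNHG9 lowest (-1.38 ± 0.25). Among 71 proteins of the mitochondrial ribosome 18 fell (25.4%), led by MRPS9 (-1.28 ± 0.21), MRPL4 (-1.19 ± 0.22) and MRPS25 (-1.18 ± 0.24). MRPS9 was at 2.07, 1.92, 1.22, 2.02 and 2.27 in H0 and at 0.44, 0.96, 0.70, 0.38 and 0.61 in H2-3, without overlap. Of 79 cytosolic ribosomal proteins 17 fell (21.5%), with a median of -0.48, beside -0.24 for the mitochondrial ribosome. That count rests on few arrays: it was 2 without the 2 H0 arrays of the other scan day and 4 to 8 without any one of H0 baboons 1, 2, 4 and 5 or H2-3 baboons 2, 3 and 4. RPL3 and RPL35 of the large subunit fell by 0.89 ± 0.26 and 0.90 ± 0.26. RPS27L, a p53-induced relative of a small subunit protein, was the only member that rose, from 3.19, 3.20, 2.99, 3.05 and 2.75 to 5.07, 4.04, 3.80, 3.92 and 4.50 (1.23 ± 0.30, limma adjusted p = 0.00394).

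Counts for other housekeeping lists were as follows, beside 15.0% of all genes that rose and 13.5% that fell. Those shares vary with brightness. Among the brightest of the 4 groups of probes, at levels from 2.20 up, 26.8% rose and 9.01% fell. The mean levels of the proteasome, respiratory chain and cytosolic ribosome lists lay above 2.20 on every array, so the shares over all genes are a rough comparison for them. Proteasome subunits had 5 of 42 up (11.9%; 1 without the 2 H0 arrays of the other scan day and 3 without H0 baboon 1 or H2-3 baboon 5) and none down. Of 23 aminoacyl-tRNA synthetases 5 fell (21.7%; 2 without the 2 H0 arrays) and 2 rose (1 without them), of 9 chaperonin subunits 2 fell (22.2%), and of 63 splicing factors 8 fell (12.7%) and 5 rose (none without the 2 H0 arrays). Of 41 translation initiation factors 2 fell (3 without the 2 H0 arrays) and 1 rose. Medians were 0.15 for the proteasome, -0.13 for the initiation factors, -0.16 for the synthetases, -0.18 for the splicing factors and -0.37 for the chaperonin, beside 0.14 for all genes. EIF2B3, a subunit of the factor that recharges eIF2 with GTP, was the largest fall among them (-1.46 ± 0.27), and CARS, the cysteine synthetase, the largest rise (1.28 ± 0.28).

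Genes of the p53 response, the transcription factor switched on by DNA damage, had 17 of 35 up (48.6%) and 3 down, with a median of 0.72 (11 up without the 2 H0 arrays of the other scan day). CDKN1A, the cell cycle inhibitor p21, was at -3.21, -3.22, -1.67, -3.17 and -3.43 in H0, where 1 array was well above background, and at 0.16, -0.46, -0.71, 0.07 and 0.81 in H2-3. The groups were 0.96 apart at their nearest (2.91 ± 0.52, limma adjusted p = 0.000456). AEN, a nuclease of p53-induced cell death, rose by 1.65 ± 0.39, with 3 H0 arrays well above background. DDB2, which recognises damaged DNA, was at 3.24, 2.65, 2.81, 3.11 and 2.88 in H0 and at 4.25, 4.29, 4.05, 4.39 and 4.97 in H2-3 (1.45 ± 0.33, limma adjusted p = 0.00277).

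Members that went the other way were FDXR, PLK2 and POLH. FDXR, a mitochondrial reductase and p53 target used as an exposure marker in human blood, was at 3.57, 2.77, 2.70, 3.53 and 3.38 in H0 and at 1.86, 2.17, 1.70, 2.62 and 2.63 in H2-3. It fell by 0.99 ± 0.24 (limma adjusted p = 0.00425), and every H2-3 array was below every H0 array, by 0.07 at the nearest. PLK2, a polo-like kinase, fell by 1.93 ± 0.37 and POLH, the translesion polymerase eta, by 0.95 ± 0.19. MDM2, the ligase that degrades p53, rose by 0.64 ± 0.23 (limma adjusted p = 0.0441), close to the threshold.

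Among BCL2 family genes and caspases 11 of 35 rose and 7 fell. The rises were 2 without the 2 H0 arrays of the other scan day and 7 without H0 baboon 1 or H2-3 baboon 5. BIRC3, an inhibitor of apoptosis induced by NF-kB, was at 1.76, 3.07, 2.56, 2.69 and 2.63 in H0 and at -2.01, 0.91, 0.69, -0.58 and -1.41 in H2-3 (8.13-fold lower, limma adjusted p = 0.000245). As for CCR7, GZMK and CD3G, baboons 2 and 3, which share a slide, were highest. Not every lymphocyte gene had this order, as CD79B was at -1.62 in baboon 2 and -1.61 in baboon 5. HRK, a BH3-only death gene, fell by 3.26 ± 0.88 and was well above background on 1 H2-3 array, and baboon 2 at 0.63 stood more than 4 log2 units above the other 4 animals. CASP5 and CASP1, caspases of the inflammasome, rose by 1.50 ± 0.40 and 1.15 ± 0.30.

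Many DNA repair genes fell. In end joining and homologous recombination 13 of 27 fell (48.1%) and 1 rose. CHEK1, the checkpoint kinase, was at -1.45, -1.28, -1.28, -1.03 and -0.98 in H0 and at -2.71, -2.87, -2.47, -3.07 and -2.64 in H2-3, narrow in both groups (-1.55 ± 0.26), with 3 of 5 H2-3 arrays well above background. ATM, the kinase that responds to double-strand breaks, fell by 1.53 ± 0.31, with its other probes at -0.43 and -1.87 and H2-3 baboon 3 within the H0 range. RAD54L, a motor protein of recombination, was not well above background in H2-3 (at least 3.14-fold lower). XRCC5, the Ku80 subunit that binds broken ends, was at 2.77, 3.44, 3.87, 3.41 and 3.60 in H0 and at 4.76, 4.28, 4.49, 4.62 and 4.91 in H2-3, the list's only rise (1.19 ± 0.21, limma adjusted p = 0.00035).

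In base and nucleotide excision and mismatch repair 17 of 39 fell (43.6%), and DDB2 was the only rise. UNG, which removes uracil from DNA, was at 1.62, 1.89, 2.24, 2.32 and 2.62 in H0 and at -2.75, -0.01, 0.19, -0.72 and -1.00 in H2-3, with baboon 1 lowest (7.98-fold lower, limma adjusted p = 0.00016). FEN1, the flap endonuclease, was at least 1.55-fold lower.

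Replication and nucleotide synthesis genes had 19 of 40 down (47.5%) and 4 up (2 without the 2 H0 arrays of the other scan day or without any one of H0 baboons 1 and 5 or H2-3 baboons 1, 4 and 5). DTYMK, thymidylate kinase, was at 2.51, 2.32, 2.07, 2.34 and 2.70 in H0 and at 0.36, 0.90, 0.86, 0.60 and 0.88 in H2-3 (-1.67 ± 0.24, limma adjusted p = 9.94e-05). TK1, thymidine kinase, fell by 1.60 ± 0.44 and MCM4, of the replicative helicase, by 2.07 ± 0.37, with 3 H2-3 arrays well above background. TYMS, the thymidylate synthase of the same pathway, moved the other way, from -2.91, -3.66, -3.07, -3.38 and -2.06 in H0 to -0.91, -1.15, -1.37, -0.17 and 0.25 in H2-3. Only 2 H0 arrays were well above background for it, against all 5 in H2-3 (2.35 ± 0.45, limma adjusted p = 0.000742).

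Mitosis genes had 14 of 30 down (46.7%) and 2 up (6.67%, and 1 up without H0 baboon 1). Their median was -1.08, the lowest of the proliferation lists, and ran from -1.94 to -0.30 under the other settings run. CDC25B, a phosphatase that starts mitosis, was at 3.30, 3.64, 3.50, 4.21 and 3.48 in H0 and at -0.30, 2.38, 1.91, 1.38 and 0.40 in H2-3 (5.56-fold lower). CDK1 was at least 2.38-fold and CENPA, the centromeric histone, at least 1.42-fold lower, neither being well above background in H2-3. The 2 rises were CCND3, a G1 cyclin (0.93 ± 0.22), and AURKA, a mitotic kinase (0.80 ± 0.24, limma adjusted p = 0.0168). For AURKA the groups did not overlap. Histone genes were mixed, with 16 of 60 up (26.7%) and 11 down (18.3%), beside 15.0% and 13.5% of all genes. The rises were 4 without the 2 H0 arrays of the other scan day and 7 to 9 without any one of H0 baboons 1, 4 and 5 or H2-3 baboons 1, 3 and 5. HIST1H4C, a replication-dependent H4 gene, was at 3.91, 2.98, 3.17, 3.31 and 3.07 in H0 and at 1.26, 1.62, 1.29, 1.11 and 0.93 in H2-3 (4.13-fold lower, limma adjusted p = 0.0004), and the linker histone HIST1H1B was at least 3.59-fold lower. Close copies among histone genes cannot be told apart by a probe. Mean T cell marker level ran from 3.10 to 4.06 in H0 and from 0.93 to 2.78 in H2-3 over the same arrays, and its part in the falls of repair, replication and mitosis genes was not tested.

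Genes of the circadian clock, the feedback loop that times daily transcription, had 11 of 18 down (61.1%) and 3 up (median -1.15). The time of day of the draws is not given in the labels used here, and its part was not tested. RORA, which activates the clock loop, was at 4.12, 2.68, 2.64, 3.70 and 3.89 in H0 and at -1.22, 1.62, 0.88, 0.03 and -0.17 in H2-3. TEF, an output factor of the clock, was at -0.30, -0.58, -1.22, 0.26 and -0.45 in H0 and at -4.65, -2.33, -2.70, -2.93 and -2.53 in H2-3 (5.94-fold lower, limma adjusted p = 0.000108). NFIL3, a repressor of the loop, rose by 1.68 ± 0.38 and CSNK1D, the kinase that marks PER proteins, by 1.26 ± 0.24. RORA and BHLHE41 are also lymphocyte genes. Genes induced by glucocorticoids had 7 of 16 up and none down (median 0.94, and 0.46 without the 2 H0 arrays of the other scan day), with THBD, thrombomodulin (1.93 ± 0.42), beside IL1R2 and CD163 above.

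**Figure D5:**
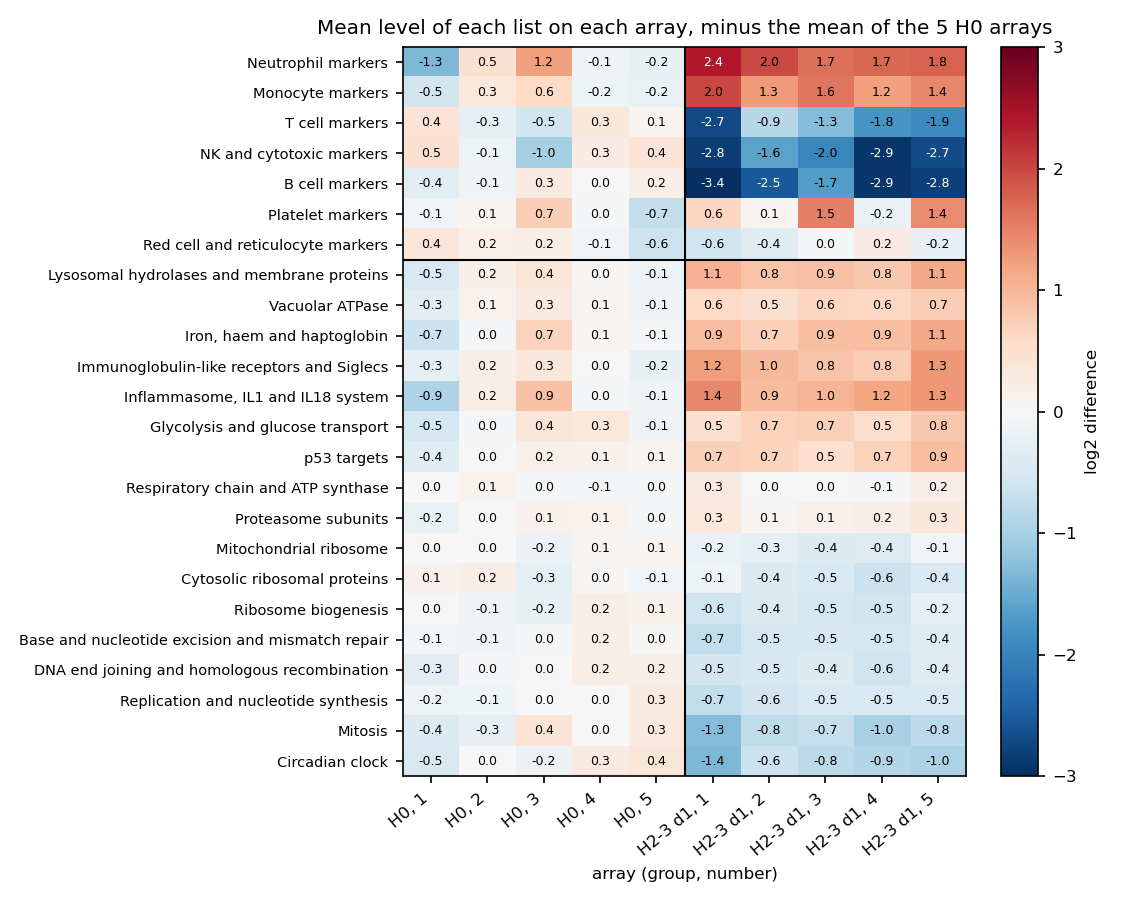
Mean level of the tested members of 7 marker lists (above the line) and 17 function lists on each array, as the log2 difference from the mean of the 5 H0 arrays. H0 baboons 1 and 3 stand at opposite ends of their group for myeloid lists. Among H2-3 animals baboons 2 and 3, which share a slide, keep more of the T cell signal than baboons 1, 4 and 5.

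Interferon-stimulated genes had 12 of 38 down (31.6%), with a median of -0.34. USP18, which shuts off interferon signalling, was at -2.02, -0.90, -1.59, -1.34 and -0.29 in H0 and was well above background on 1 H2-3 array (-2.45 ± 0.38). LY6E was at 3.94, 2.89, 3.10, 4.36 and 4.15 in H0 and at 0.63, 2.04, 2.21, 1.33 and 1.47 in H2-3 (4.44-fold lower, limma adjusted p = 0.000304), and GBP2, a guanylate-binding protein, fell by 2.08 ± 0.49. TRIM22, an antiviral ligase that is also a p53 target, rose by 1.51 ± 0.32, with 3 H0 arrays well above background. Of 5 GIMAP genes, GTPases that keep lymphocytes alive, 4 fell, most of all GIMAP7 (-2.11 ± 0.28).

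MHC class II genes and their activator had 3 of 20 down (15.0%, beside 13.5% of all genes) and none up, with a median of -0.09. Without the 2 H0 arrays of the other scan day 5 of the 20 fell and the median was -0.28. The median of 16 MHC class I genes was 0.35. HLA-DOA (-2.06 ± 0.41) and HLA-DOB (-1.83 ± 0.43) encode the B cell chaperone that restrains peptide loading, and a second HLA-DOA probe moved by 0.32. Cholesterol genes had 6 of 25 down and 4 up. The rises were 1 without the 2 H0 arrays of the other scan day and 2 without any one of 7 of the 10 arrays. LSS, an enzyme of sterol synthesis, fell by 1.60 ± 0.24 and ABCG1, which exports cholesterol, by 1.97 ± 0.34. Hypoxia-induced genes had 6 of 21 up (28.6%) and a median of 0.00, and 2 rose without the 2 H0 arrays of the other scan day. Zinc finger genes on chromosome 19 had 12 of 196 up (6.12%; 6 without the 2 H0 arrays of the other scan day) and 24 down (12.2%), beside 15.0% and 13.5% of all genes.

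The spread within each group was also compared, with no test. The median SD of a gene was 0.44 over the 5 H0 arrays and 0.33 over the 5 H2-3 arrays, and 32.5% of genes had the higher SD in H2-3. Against the 3 H0 arrays of the shared scan day, with a median SD of 0.37, it was 45.7%. Baboon 1 of H2-3 lay farthest from the H0 mean: over the genes that rose its median deviation was 1.18 and over the genes that fell -1.36, against 0.93 and -0.98 in baboon 2.

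No gene passed between H2-3 and H1-2, the milder category, on the same day in the main fit. With 4 H1-2 day 1 arrays against the 5 of H2-3, limma called 0 of 21130 genes (smallest adjusted p 0.118), although 1224 had an unadjusted p under 0.05. Without H1-2 animal 2 it called 14 genes, without H2-3 baboon 3 it called 3, and with the replicate number as a block 66. A p above the threshold does not show that the categories were alike, as the median SE of this difference was 0.29. Differences from H1-2 that did not pass ran as follows for genes that fell from H0. CD79B averaged -1.48 ± 0.71 (SD, n = 5) in H2-3 and 0.95 ± 1.80 (SD, n = 4) in H1-2, a difference of -2.43 ± 0.69 (SE, limma adjusted p = 0.322). WNT3 differed by -3.30 ± 0.89 (limma adjusted p = 0.243) and UNG by -2.31 ± 0.49 (limma adjusted p = 0.125). The median difference was -2.21 over 18 B cell markers and -0.76 over 20 T cell markers. Among genes that rose from H0, ID1 differed between the categories by 3.00 ± 0.54 (limma adjusted p = 0.118, the smallest found). ADAMDEC1 differed by 2.80 ± 0.73 (limma adjusted p = 0.207), MARCO by 1.79 ± 0.89 and CD177 by 0.37 ± 0.72, and none of them passed.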

How the data were processed

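The 10 arrays of the comparison are part of one limma fit of all 23. Peripheral blood (2.5 ml) was collected in PAXgene tubes and 100 ng of total RNA labelled with Cy3 for human 1-colour arrays, per the labels' protocols. The authors' scanner files hold spot intensity, already background-subtracted, and a flag for each spot (other) that the authors' software set to say whether it is well above background. They were made with Agilent Feature Extraction 10.7.3.1, per the submitters' processing notes. The authors' deposited value table holds log2 values with every column median at 4.7029, so it is centred in a way not stated in the sources used here. Its columns correlated at 0.9996 to 1.0000 with their own arrays and it served as an alternative.

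From the 50599 probes that are not controls, log2 intensity minus the array's 75th percentile was taken, 27215 probes well above background on at least 4 arrays were kept, and the brightest stood for each of 21130 genes. limma 3.58.1 in R 4.3.3 fitted the 5 group means, with Benjamini-Hochberg adjustment and a threshold of 0.05. An "at least" fold sets the brighter group's mean against the dimmest signals well above background in the other. The number of arrays limits the precision. Data were simulated for the H2-3 day 1 against H0 comparison, with 200 of 21130 genes changed. Of genes changed by 1 log2 unit 37% were recovered, and of those changed by 2 units 84%, with 9 false calls. Far more genes, 6007, were called in the data, which alters the adjusted threshold, so these shares do not carry over directly.

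The samples, the 47 gene lists and 11 marker lists and the tests were chosen with earlier results of these data known. Genes named are the 12 largest rises and falls, the 6 gained and 6 lost with the largest bound, up to 3 rises and 3 falls per list and its few exceptions, and a handful of markers of exposure. A few genes that the rule names are not reported here. Others are said to be chosen after their values were seen. Replicate numbers of H0 and H2-3 day 1 were not used to pair the arrays in the main fit. No genome annotation was used.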

Additional observations from a re-analysis of the deposited data

Results flagged for a closer look

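In 26 of 330 groups of 5 arrays, over genes named in the text, 1 array stood apart from the other 4 by Dixon's test, where chance gives about 16.5. No explanation was tested for any of them.

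H2-3 baboon 1 stood apart most often. It was the highest for HP (10.07, the next at 9.24), HPR (8.78, next 7.90), S100A12 (6.09, next 4.63), IL1RAP (3.31, next 2.48), PFKFB4 (5.98, next 5.35), HBA2 (12.8, next 12.4) and SIGLEC10 (-4.37, next -4.96), and the lowest for OPTN (-4.27, next -2.44) and TEF (-4.65, next -2.93). Its share of probes well above background, 41.4%, was the lowest of the 10 arrays.

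H0 baboon 1 was the lowest for ATP6V1A (0.13, next 1.46), CD163 (3.38, next 5.00), FCAR (-0.77, next 1.53), IL17RA (3.05, next 4.59) and NFIL3 (2.29, next 4.21), and its mean neutrophil marker level was the lowest of its group at 2.45. H0 baboon 3 was the highest for CDKN1A (-1.67, next -3.17) and FAM20A (0.90, next -1.66) and the lowest for AEN (-5.13, next -3.10) and CCR7 (4.45, next 6.29). H0 baboon 2 was the lowest for HIST1H1B (-2.51, next -1.06) and the highest for ID1 (-4.03, next -5.13), which was not well above background in any H0 animal.

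Among the other H2-3 animals, baboon 2 was the highest for HRK (0.63, next -3.73) and the lowest for IL1R1 (1.54, next 2.44). Baboon 3 was the highest for CD79B (-0.25, next -1.61) and CDK1 (-3.28, next -4.17). Baboon 4 was the lowest for CD22 (-4.70, next -3.37) and baboon 5 the highest for RPL3 (7.26, next 6.79).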

How the results depend on the processing

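The count of 6007 changed genes was 4366 to 6307 under the other scalings, filters, probe rules, sample choices and the scan day or baboon as a block, and 4869 to 6533 when 1 array was left out. It was 1112 with the slide as a block and 873 within the slide that holds both groups, a setting added after seeing the data, each resting on 1 array of each group for the contrast. Genes that differ from H1-2 day 1 were 0 to 14 when 1 array was left out and 66 with the replicate number as a block. Same-numbered arrays did not deviate together in H0 and H2-3 day 1 (r of -0.15 to 0.01) or all in H1-2 and H2-3 day 1 (-0.12 to 0.27). These values cannot settle whether a number stands for the same animal in H0 and H2-3, as exposure and slide differ between such arrays too. With the replicate block 6307 genes changed from H0. Gained and lost genes were 655 in place of 155 with at least 4 arrays against at most 1. None of the 241 genes chosen for naming turned direction under any setting run. They were chosen by their change on these same arrays, so the kept direction is no independent check. The scan day as a block left 194 of them called, and the slide as a block left 72. List medians turned sign for the respiratory chain, the proteasome, Fc receptors, cholesterol, hypoxia, MHC class II, red cell markers and long noncoding names, all near 0. Other medians kept their sign but changed in size, such as those of mitosis (-1.94 to -0.30) and the circadian clock (-1.84 to -0.34). No paired comparison of the same animals before and after exposure could be made from the labels. Genes not well above background on any array of a group have only bounds, and the change of a gene so measured on only some arrays of a group is less certain.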
